A study of Mus musculus with 4 samples.

Results

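The genes described here are the doublecortin family (Dcx, Dclk1 and Dclk2) and the structural microtubule-associated proteins, or MAPs (Map1a, Map1b, Map2, Map4, Map6 and Mapt). These 9 genes were chosen by name, out of 19937 genes with a probe set of their own, and all 9 lay above the signal limit that left 13956 genes for testing. The probe set shown for a gene is the one that was brightest over the 4 arrays. Map4 had a second probe set and the other members had a single one.

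Transcripts were measured on Affymetrix mouse gene arrays in primary neurospheres, which are floating clusters of neural stem and progenitor cells. They were grown from the lateral wall of the lateral ventricle of C57BL/6 mice aged 9 to 12 weeks, a region called the subventricular zone (SVZ). Cells of all 4 arrays were transfected with non-targeting siRNAs and transduced with a pCLIG virus carrying Pax6, a transcription factor of neurogenesis. No culture without Pax6 was analysed here. The DMSO group (2 arrays) was kept in 0.01% DMSO, and the olaparib group (2 arrays) in 100 nM olaparib, an inhibitor of PARP1 and PARP2, in 0.01% DMSO. Treatment began with the virus, went on for 36 h of floating culture, and continued during 10 h of differentiation on laminin without growth factors. The arrays of a group are labelled biological replicates. The labels do not say whether these came from separate animals, so the p-values measure the spread between these arrays only.

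Microtubules are polymers of tubulin that grow and shrink at their ends, and they carry the nucleus forward and fill the leading process when a young neuron migrates. Doublecortin binds between the protofilaments of the microtubule wall and stabilises it. It is the standard marker of SVZ neuroblasts, the migrating cells that become olfactory bulb interneurons. Structural MAPs bind along the microtubule and set its stability and spacing in axons and dendrites. In the SVZ system the study asked how PARP activity bears on Pax6-driven neuronal differentiation.

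With olaparib, Dcx, Map2 and Map1b fell, and the other 6 members did not pass the test. Dcx fell by 1.05 on the log2 scale, Map2 by 0.55 and Map1b by 0.47. Dclk1, the closest relative of Dcx, had the only sizeable difference in the opposite direction, 0.35 higher with olaparib, and missed the threshold (adjusted p = 0.0657). So 3 of 9 members fell and 0 rose, at an adjusted p under 0.05 in limma over all 13956 genes. Across all genes tested, 3.37% fell and 2.84% rose by the same rule. At an unadjusted p under 0.05 there were 5 members, 1 of them higher with olaparib, against 19.1% of all genes. The DMSO and olaparib arrays did not overlap in 7 of 9 members, and in 47.1% of all genes. The median change of the members was -0.13, that of all genes 0.0013. The members were picked because of their family and Dcx was known to fall, so these counts are a description of the family.

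**Figure D1:**
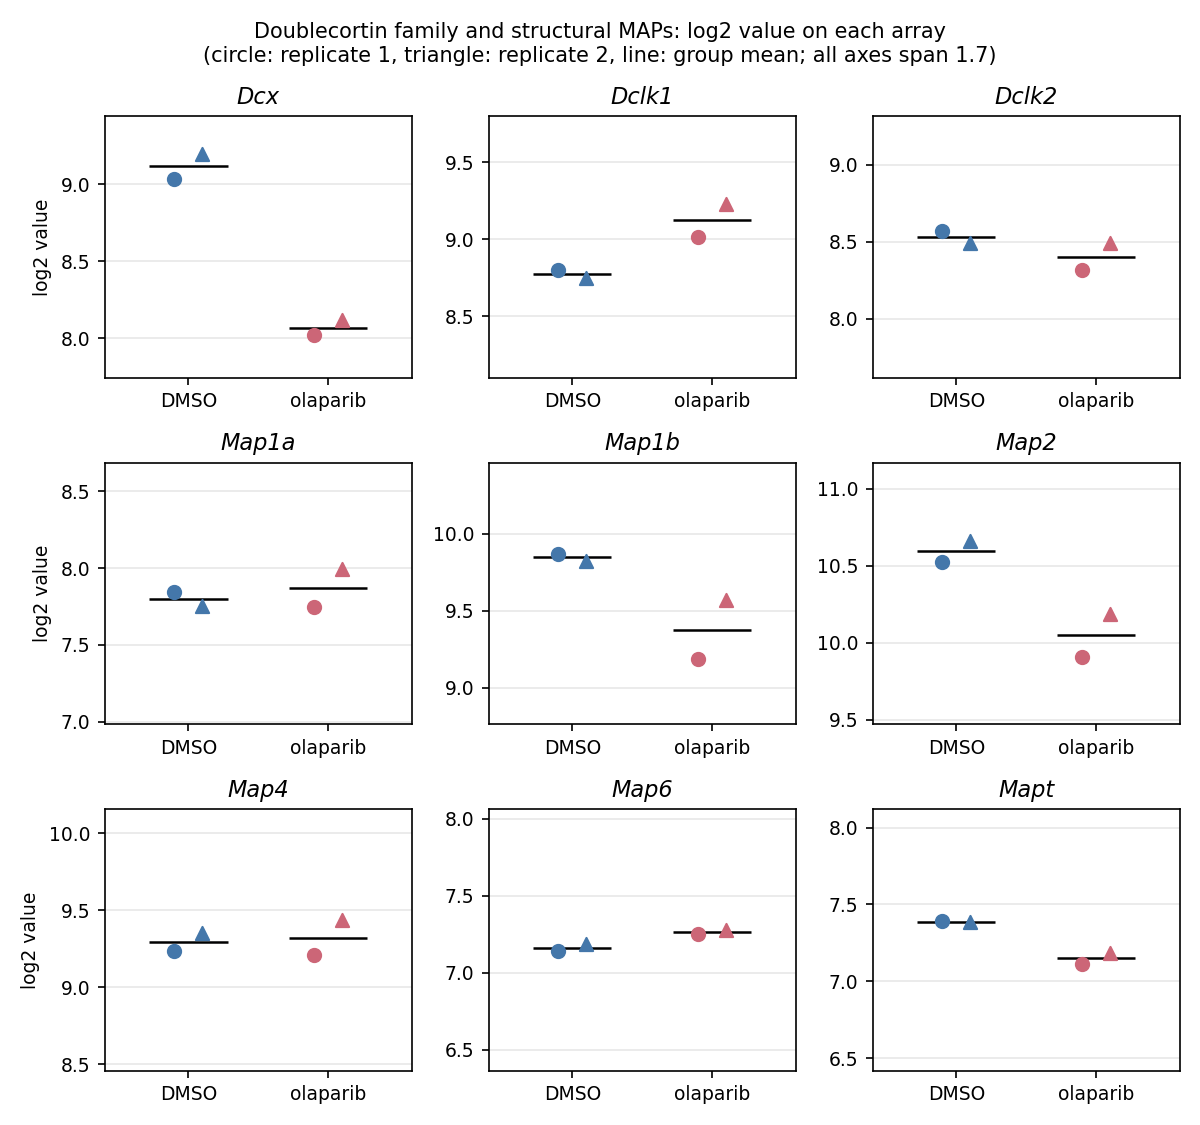
Log2 value of each of the 9 genes on each of the 4 arrays; circles are replicate 1, triangles replicate 2, lines the mean of 2 arrays, and every vertical axis spans the same width. Dcx shows the widest gap between the groups, Dclk1 lies higher with olaparib, and the groups overlap for Map1a and Map4.

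The stretches upstream of the annotated gene records are shown because these windows differ widely in base composition. They are given for the 3 members that fell and for Dclk1, whose difference in the other direction did not pass. They come from RefSeq promoter windows (GRCm38.p6), which were matched for 7 of the 9 members, not for Map6 and Mapt. Capitals mark TATAAA, the letters of the TATA box, a core promoter element. The first Dcx line lies before the gene record and the second is a 30-base stretch inside it around TATAAA. In order, the lines are chrX:143933397-143933469 (minus strand), chrX:143933300-143933329 (minus strand), chr13:99516603-99516852 (minus strand), chr1:66175079-66175201 (plus strand) and chr3:55242114-55242302 (plus strand).
Dcx: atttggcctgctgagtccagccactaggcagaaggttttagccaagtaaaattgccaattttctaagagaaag
Dcx: tttcctgtgcgtTATAAAcgaaacctttct
Map1b: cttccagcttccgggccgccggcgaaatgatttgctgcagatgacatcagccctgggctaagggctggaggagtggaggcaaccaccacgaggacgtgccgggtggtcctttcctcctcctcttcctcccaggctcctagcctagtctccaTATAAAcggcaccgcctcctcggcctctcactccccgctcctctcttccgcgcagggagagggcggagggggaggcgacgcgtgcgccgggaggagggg
Map2: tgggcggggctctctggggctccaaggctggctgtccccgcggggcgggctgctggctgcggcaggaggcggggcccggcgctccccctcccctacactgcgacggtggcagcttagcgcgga
Dclk1: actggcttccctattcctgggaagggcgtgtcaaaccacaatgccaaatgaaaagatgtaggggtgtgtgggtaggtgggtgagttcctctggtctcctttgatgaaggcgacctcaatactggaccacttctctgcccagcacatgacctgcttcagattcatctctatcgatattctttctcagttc

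Over the 250 bases before a start site, the outer Dcx window was AT-rich, with a GC content of 41.6% and 3 CpG dinucleotides. Map1b reached 66.4% with 19 CpG and Map2 81.2% with 34, the latter above 99.1% of all 32851 windows in GC content. The outer Dclk1 window had a GC content of 52.4%, equal to the median of all windows. Base composition thus differed among the members that fell. TATAAA, searched on both strands, occurred at 98 bases before the outer Dcx start and at 99 bases before the Map1b start, and in 12.4% of all windows. TAATTA, a homeodomain core that reads the same on both strands, occurred in both Dcx windows, which overlap, and in 4.84% of all windows. TATAAA and TAATTA were chosen after these sequences were read, and no 2 of the matches overlapped. TGACAG, the core that Meis factors bind, was in 0 of the 10 windows of the members on either strand and in 15.9% of all windows, which says only that these letters are not in these stretches.

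Dcx encodes doublecortin itself. Its log2 value was 9.04 and 9.20 on the DMSO arrays and 8.02 and 8.12 on the olaparib arrays. Both olaparib arrays lay below both DMSO arrays, and the nearest values of the groups were 0.92 apart, while arrays of a group differed by at most 0.16. Dcx went from 9.12 ± 0.12 to 8.07 ± 0.07 (SD, n = 2 each), a 2.07-fold lower value. The 95% confidence interval of the change ran from -1.27 to -0.84 (SE 0.10), and the adjusted p in limma was 4.36e-06. By p it was 7 in rank among the 13956 genes. Across 17 other settings the change ranged from -1.13 to -0.97 and 16 kept the call. The exception was a fit over all 34760 probe sets with no filter on dim ones, chosen after seeing the data, where Dcx had an adjusted p of 0.145 and no probe set passed (limma, 0 called, 3448 or 9.92% at an unadjusted p under 0.05). With the filter kept, the fit over all 21704 brighter probe sets called Dcx (adjusted p = 0.0447) and 0.0645% of those probe sets.

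Dclk1 encodes a kinase whose longer products carry the doublecortin domains together with a kinase domain. On the DMSO arrays its log2 value was 8.80 and 8.75, and on the olaparib arrays 9.01 and 9.23. The groups were separate, by 0.21, with the olaparib arrays on top. Dclk1 differed by 0.35 (SE 0.11, 95% confidence interval 0.12 to 0.57, adjusted p = 0.0657 in limma), a 1.27-fold higher value. It passed in 4 of 17 other settings. These were quantile normalization (adjusted p = 0.0211 in limma), cyclic loess normalization (0.0224), eBayes without trend (0.0410) and without olaparib replicate 1. With 1 array left out the change of Dclk1 ran from 0.24 to 0.45. It did not pass with either DMSO array or with olaparib replicate 2 left out. Over the settings that kept all 4 arrays its adjusted p in limma reached 0.384. Its sign held in all 17, though many of the 17 left the change as it was and could not turn it.

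Dclk2 encodes the other doublecortin-like kinase expressed in brain. It had log2 values of 8.57 and 8.49 with DMSO and of 8.31 and 8.49 with olaparib. One olaparib array was at the level of the lower DMSO array, within 0.0022. Dclk2 differed by -0.13 (SE 0.10, 95% confidence interval -0.34 to 0.08, adjusted p = 0.578 in limma).

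The estimated changes of the 3 members of the doublecortin family thus differed in size and sign, and only that of Dcx passed. Dcx exceeded Dclk1 by 0.23 and 0.45 on the DMSO arrays and fell short of it on both olaparib arrays, by differences of -0.997 and -1.11. These are differences between probe sets with unlike brightness, so only their shift between the groups, 1.40 on the log2 scale, can be read. Against Dclk2 the shift was 0.92. The fall of Dcx was larger than the change of every other member, with shifts from 0.51 against Map2 to 1.40 against Dclk1. In all 8 comparisons the groups did not overlap. All 8 use the same Dcx values, whose groups lay 0.92 apart, so they largely restate the fall of Dcx and are not separate observations. These shifts were not tested. With 2 arrays against 2, the smallest p of an exact two-sided permutation test would be 0.333.

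**Figure D2:**
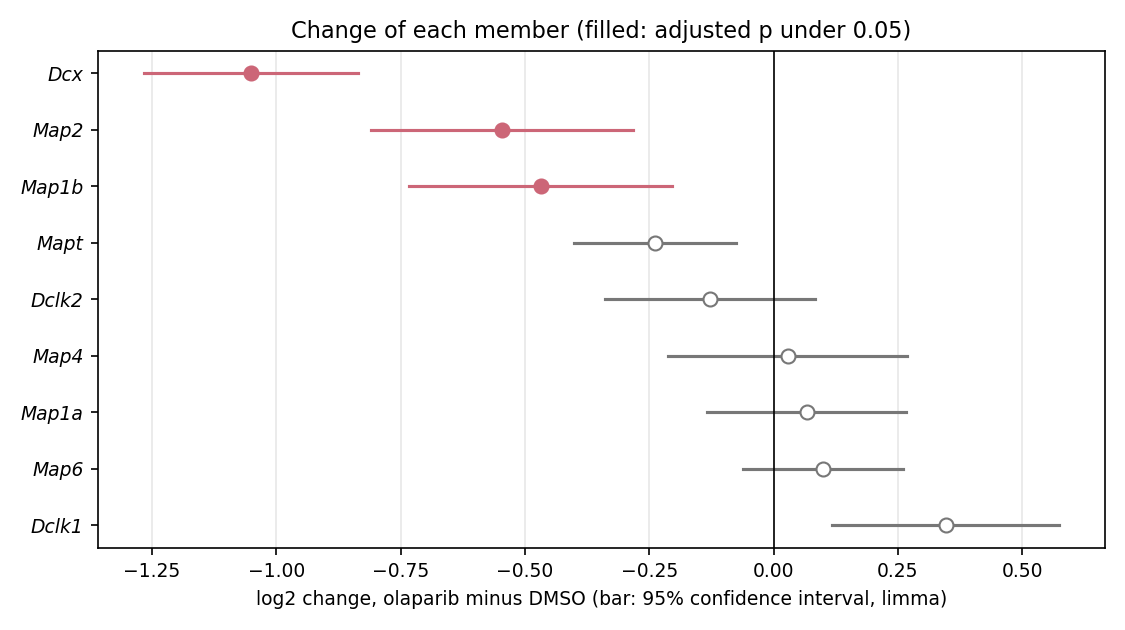
Log2 change of each member, olaparib minus DMSO, with its 95% confidence interval from limma (n = 2 arrays per group); filled points passed an adjusted p of 0.05. Dcx, Map2 and Map1b are filled on the left, and Dclk1 at 0.35 is the highest open point.

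Map2, Map4 and Mapt share a related microtubule-binding repeat. Map2 encodes the MAP of dendrites and of young neurites. It had log2 values of 10.53 and 10.66 with DMSO and of 9.91 and 10.19 with olaparib. Both olaparib arrays were below both DMSO arrays, with a gap of 0.34 that was a little wider than the 0.28 between the olaparib arrays. Map2 fell by 0.55 (SE 0.13, adjusted p = 0.0115 in limma), from 10.59 ± 0.09 to 10.05 ± 0.20 (SD, n = 2 each), a 1.46-fold lower value. The change was lowest at -0.69 without olaparib replicate 2 and highest at -0.40 without olaparib replicate 1, and it passed in both. The call was lost without DMSO replicate 1 (-0.61, adjusted p = 0.120), without DMSO replicate 2 (-0.48, adjusted p = 0.317) and in each fit over all probe sets (adjusted p of 0.161 to 0.291).

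Mapt encodes tau, the MAP of axons. Its log2 value was 7.39 and 7.38 with DMSO and 7.11 and 7.19 with olaparib, lower on both olaparib arrays. The change was -0.24 (SE 0.08, 95% confidence interval -0.40 to -0.08), and it did not pass (adjusted p = 0.0791 in limma, and 0.0371 to 0.491 over 17 other settings, of which it passed only without olaparib replicate 2). Map4 encodes the broadly expressed relative found in dividing and non-neuronal cells. It had log2 values of 9.23 and 9.35 with DMSO and of 9.21 and 9.44 with olaparib, and the groups overlapped. Its change was 0.03 (SE 0.12, 95% confidence interval -0.21 to 0.27, adjusted p = 0.951 in limma). The sign turned in 5 of 17 settings, though many of the 17 left the change as it was and could not turn it. The second Map4 probe set, dim at a mean of 6.53, had a change of -0.06.

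Map1a and Map1b encode a second type of MAP, each made as a precursor that is cut into a heavy and a light chain. Map1b is the form of growing axons in early neurons. Its log2 value was 9.87 and 9.82 with DMSO and 9.19 and 9.57 with olaparib. The olaparib arrays were both lower but 0.38 apart, more than the gap of 0.25 between the groups. Map1b fell by 0.47 (SE 0.13, adjusted p = 0.0296 in limma), from 9.85 ± 0.03 to 9.38 ± 0.27 (SD, n = 2 each), a 1.38-fold lower value. Its call was the least steady of the 3. The change was -0.28 without olaparib replicate 1 (adjusted p = 0.0516) and -0.66 without olaparib replicate 2. It passed in 9 of 17 other settings, against 12 for Map2. The call was lost with either DMSO array removed (adjusted p of 0.382 and 0.242), without a filter (0.0598), under median centring (0.0982) and in each fit over all probe sets (0.231 to 0.374).

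Map1a, the form that prevails in mature neurons, did not follow Map1b. It had log2 values of 7.85 and 7.76 with DMSO and of 7.74 and 7.99 with olaparib, and both olaparib arrays lay outside the DMSO pair, on opposite sides. The change was 0.07 (SE 0.10, 95% confidence interval -0.13 to 0.27, adjusted p = 0.810 in limma), and -0.06 without olaparib replicate 2. Map6 encodes STOP, a protein that keeps microtubules stable in the cold. The log2 values were 7.14 and 7.19 with DMSO and 7.25 and 7.28 with olaparib, a separation of 0.06. The difference of 0.10 did not pass (SE 0.08, 95% confidence interval -0.06 to 0.26, adjusted p = 0.565 in limma).

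Of the 9 members, Mapt and Map6 were the dimmest, with means of 7.27 and 7.21. Probe sets of 26 genes from tissues unrelated to brain had a median of 6.43, a 75th percentile of 6.55 and a highest value of 7.77. Only Apoa2, the brightest of these genes at 7.77, was above Mapt and Map6. The SEs of Mapt and Map6 in limma, 0.08 each, were the smallest of the 9 members. Whether background shrank the differences of such dim genes was not tested.

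**Figure D3:**
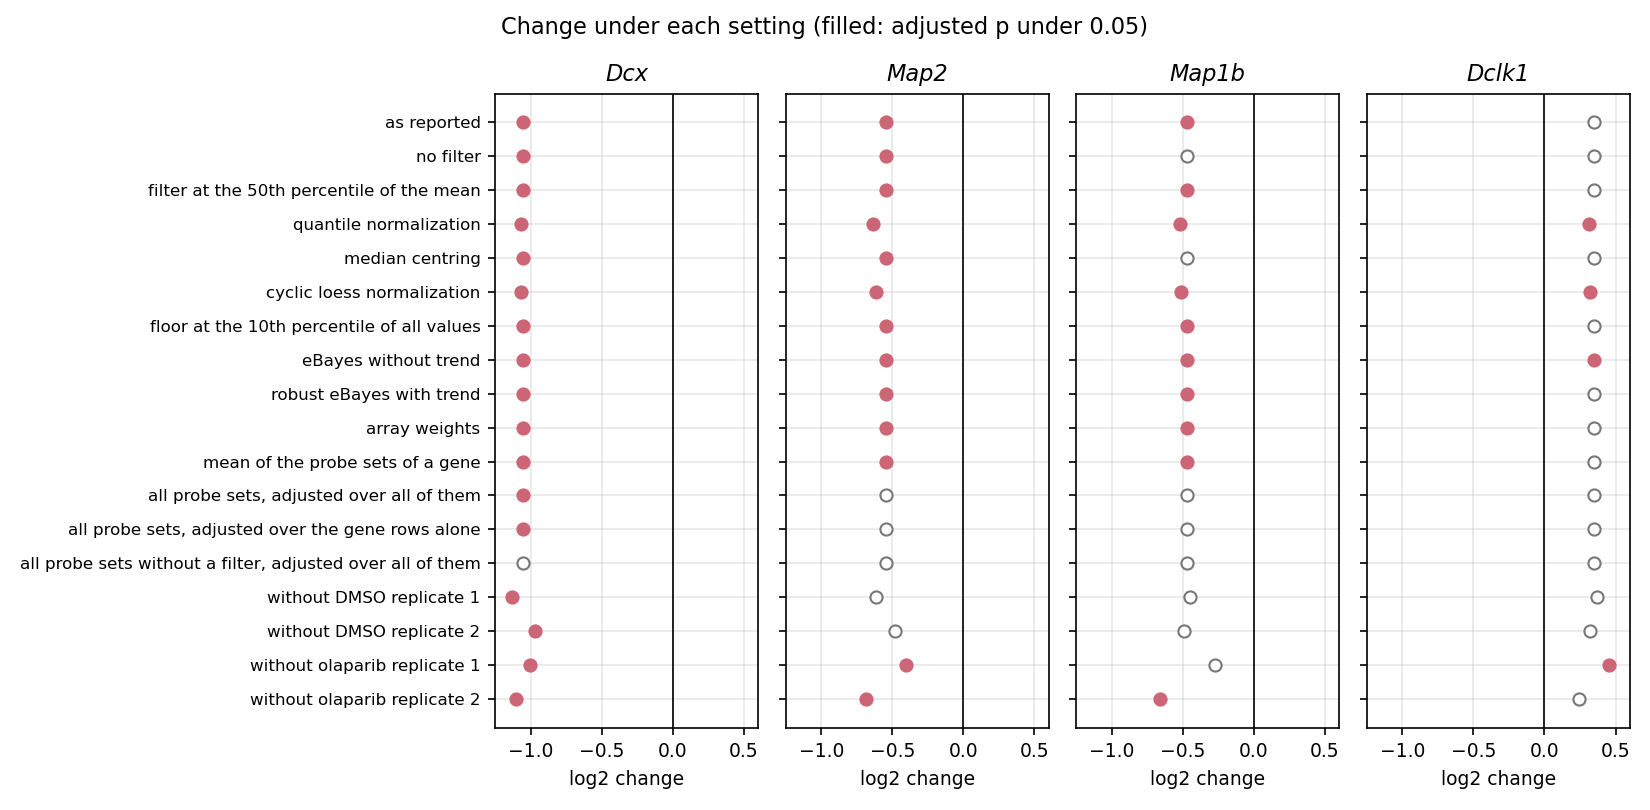
Log2 change (olaparib minus DMSO) of Dcx, Map2, Map1b and Dclk1 as reported and under 17 other settings; filled points passed an adjusted p of 0.05. Dcx stays between -1.13 and -0.97 and is open only in the fit over all probe sets without a filter, while Map2 and Map1b are open when either DMSO array is left out.

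Related genes of the microtubule system were read from lists of proteins that bind, modify or travel along microtubules. Over the 6 lists 9 of 138 tested genes passed in either direction, or 6.52%, near the 6.22% of all genes. Of 40 other MAPs tested, 4 fell and 0 rose, where 3.37% of all genes fell and 2.84% rose. Their median change was -0.03, and 12 were at an unadjusted p under 0.05 in limma, against 19.1% of all genes. The 4 included 3 of the collapsin response mediator proteins, which bind tubulin and act in growth cones. Dpysl4 fell by 0.51 (SE 0.08, adjusted p = 0.000440), Dpysl3 by 0.37 (SE 0.10, adjusted p = 0.0305) and Dpysl5 by 0.31 (SE 0.08, adjusted p = 0.0264), all in limma. The fourth was Gas2l3, a linker of actin and microtubules in dividing cells, which fell by 0.33 (SE 0.08, adjusted p = 0.0161 in limma). Dpysl4 kept its call with any array left out, and its log2 value was 7.61 and 7.55 with DMSO against 7.04 and 7.11 with olaparib. Dpysl3, Dpysl5 and Gas2l3 lost their calls on removal of DMSO replicate 1 or of DMSO replicate 2, Dpysl5 also on removal of olaparib replicate 1 and Gas2l3 on removal of olaparib replicate 2 (adjusted p up to 0.345, 0.438 and 0.313 over 17 settings). None of the 4 passed in the fits over all probe sets. Dpysl3, Dpysl5 and Gas2l3 also lost their calls without a filter on genes. Dpysl3 lost it under median centring, and Dpysl5 under cyclic loess normalization and eBayes without trend.

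Over all genes tested 3.37% fell and 2.84% rose, and 19.1% were at an unadjusted p under 0.05 in limma. The counts of the following lists are to be read against these shares. Among 26 kinases, phosphatases and scaffolds that act on MAPs, 1 fell and 0 rose (median -0.05, with 5 at an unadjusted p under 0.05). That gene was Mapk8ip2, a scaffold of the JNK kinases, at -0.30 (SE 0.08, adjusted p = 0.0238 in limma). Of 24 genes of the Lis1 and dynein machinery, which pulls the nucleus forward in migrating neurons, 1 rose and 1 fell (median 0.02). Nudcd1 rose by 0.30 and Hook1, an adaptor of dynein, fell by 0.30 (SE 0.08 each, adjusted p of 0.0305 and 0.0289 in limma). Of 21 kinesin genes of axonal transport, 1 rose (median -0.0009), which was Kif1c by 0.44 (SE 0.12, adjusted p = 0.0375 in limma). Of 23 tubulin-modifying and severing enzymes, 1 fell (median -0.02), Katnal1, a relative of the severing enzyme katanin, by 0.34 (SE 0.09, adjusted p = 0.0228 in limma). Mapk8ip2, Hook1, Nudcd1, Kif1c and Katnal1 each lost the call without a filter on genes and in every fit over all probe sets. Median centring lost Nudcd1, Kif1c and Katnal1, and eBayes without trend lost Hook1 and Nudcd1. Kif1c also lost its call under cyclic loess and with the mean of its probe sets. Mapk8ip2, Hook1, Nudcd1 and Kif1c lost their calls on removal of DMSO replicate 1 or of DMSO replicate 2, Nudcd1 also on removal of olaparib replicate 2, and Katnal1 on removal of DMSO replicate 1. Over 17 settings the adjusted p reached 0.313 for Mapk8ip2, 0.470 for Hook1, 0.433 for Nudcd1, 0.780 for Kif1c and 0.465 for Katnal1. The 4 tested genes with doublecortin domains outside the family had changes of -0.12 to -0.03 and 0 passed in limma (0 at an unadjusted p under 0.05). They were dim, and the one with the smallest p was Dcdc2a at -0.12 (adjusted p = 0.487).

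**Figure D4:**
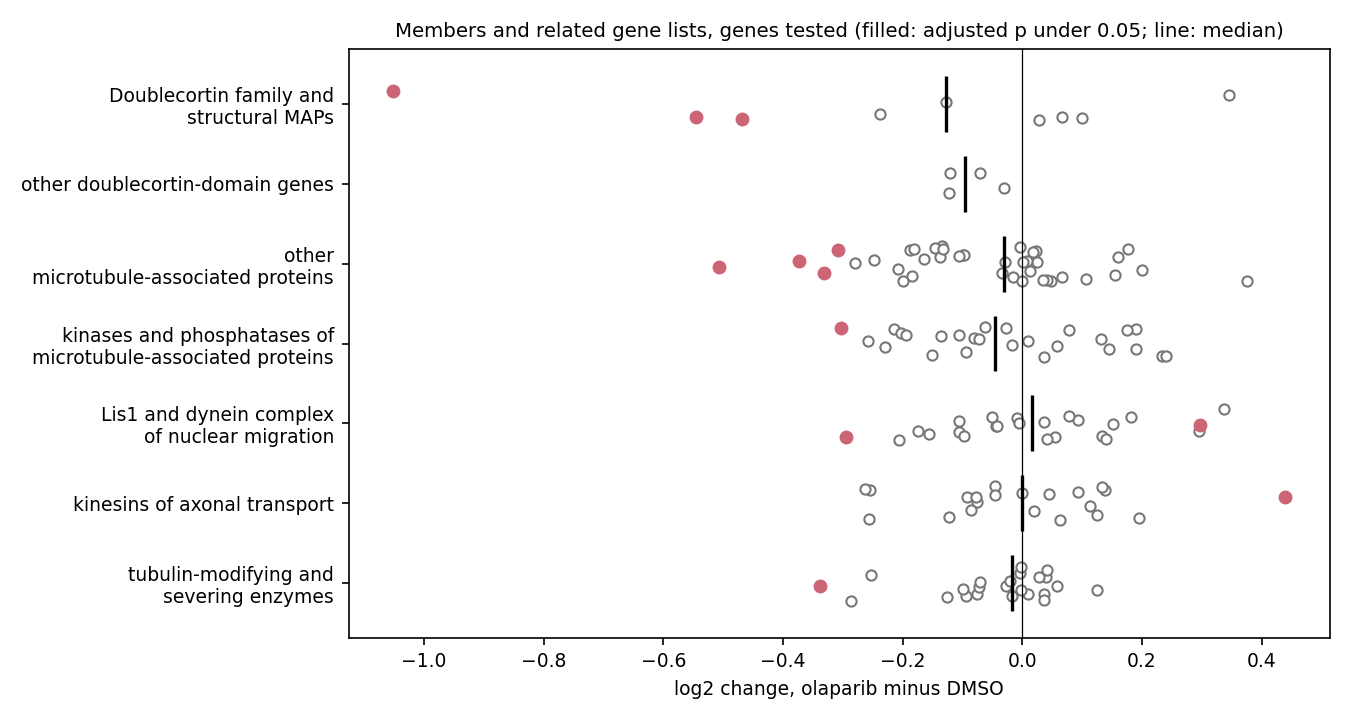
Log2 change (olaparib minus DMSO) of the 9 members and of the tested genes of 6 related lists; filled points passed an adjusted p of 0.05 in limma and vertical lines are medians. The list medians lie between -0.13 and 0.02, and Dcx is the point farthest from 0.

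The array-by-array pattern of Dcx was set against that of other tested genes, after subtracting each gene's own mean over the 4 arrays. The other members, predicted genes, genes named only by a clone, and olfactory or vomeronasal receptors were left out. Likeness was the root mean square difference over these 4 values, in log2 units. The nearest was Pdp1, a phosphatase that activates pyruvate dehydrogenase, at 0.01. Its log2 value was 9.10 and 9.26 with DMSO and 8.11 and 8.18 with olaparib. Next were Draxin, an axon guidance protein, at 0.06, the chemokine receptor gene Cxcr4 at 0.10, Rgr at 0.10 and the matricellular gene Ccn1 at 0.10. Their changes ran from -1.04 for Pdp1 to -0.87 for Cxcr4. With 4 arrays such a ranking mostly finds genes with a change of the same size, and it is given as a description.

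**Figure D5:**
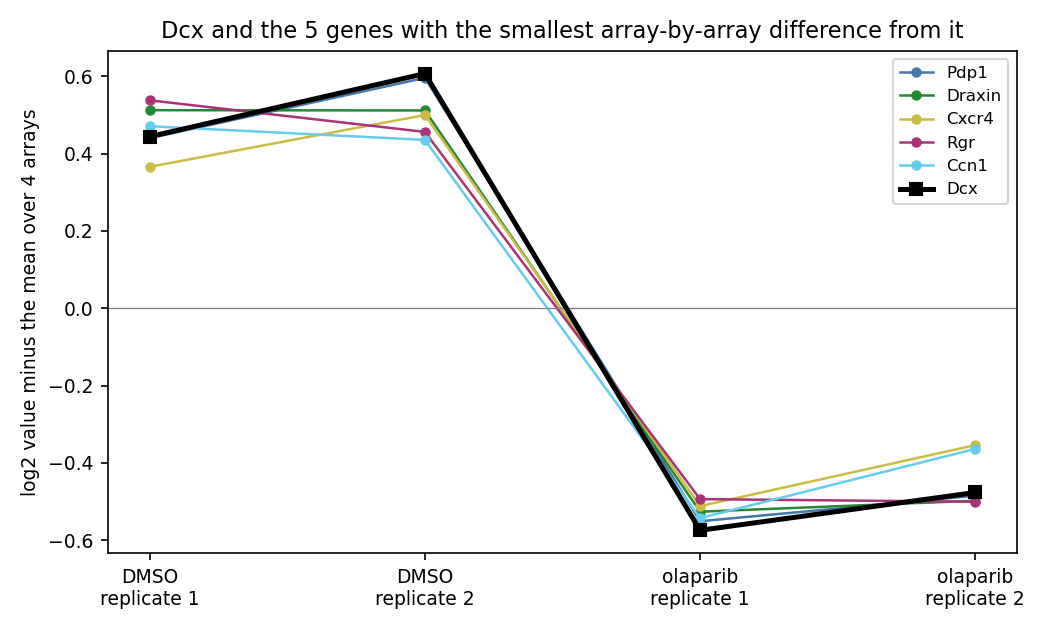
Log2 value minus the gene's mean over 4 arrays, on each array, for Dcx (squares) and the 5 genes with the smallest difference from it among the genes compared; lines only join the points of a gene. Pdp1 runs closest to Dcx, and all 6 genes are above their mean with DMSO and below it with olaparib.

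Some markers of cell types fell with Dcx, and their part in its change was not tested. Of 17 tested markers of neuroblasts, 4 fell (Gad2, Nsg2, Robo2 and Stmn1), 0 rose and 13 did not pass, with 9 at an unadjusted p under 0.05 and a median of -0.20. Of all genes 3.37% fell, 2.84% rose and 19.1% were at that unadjusted p. The mean log2 level over the 20 listed markers was 7.79 to 7.82 on the DMSO arrays and 7.57 to 7.63 on the olaparib arrays. Of 15 stem cell and astrocyte markers, 2 fell (Gfap and Aqp4), 0 rose and 13 did not pass, with 6 at an unadjusted p under 0.05 in limma. Their changes had mixed signs, from -1.03 for Gfap to 0.23 for Nes, which did not pass, with a median of -0.10. The mean level over the 16 listed markers was 9.68 to 9.69 with DMSO against 9.41 to 9.58 with olaparib. Of 10 oligodendrocyte lineage markers 1 rose (Cspg4), 0 fell and 9 did not pass, with 3 at an unadjusted p under 0.05 in limma. Their changes had mixed signs, from -0.23 for Pdgfra, which did not pass, to 0.33 for Cspg4, with a median of 0.09. Stmn1 and Cspg4 lost their calls on removal of DMSO replicate 1 or of DMSO replicate 2. The 7 called markers did not pass in the fit over all brighter probe sets when adjusted over all of them. Microglial markers had a median level of 6.41, vascular markers of 6.41 and ependymal markers of 6.51, all near the 6.43 of unrelated tissues, with 0 of 5, 0 of 4 and 0 of 5 tested genes past the threshold in limma and 1, 0 and 1 at an unadjusted p under 0.05. In such mixed cultures, fewer cells of a type and less RNA per cell cannot be told apart. Parp1, Parp2 and Pax6 differed by -0.04, -0.10 and 0.06 (adjusted p of 0.913, 0.622 and 0.869 in limma), and viral Pax6 was not told apart from the cells' own.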

How the data were processed

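The authors deposited 1 log2 value per probe set and array for 4 arrays, read as log2 from their range of 5.47 to 13.74. Background correction, normalization and array batches are not given in the sources used here. Background left in the values would shrink a change. Probe sets were named from the platform annotation, which can be old and updated through RefSeq (19855 of 19937 genes matched). Of 34760 probe sets, 21640 named 1 gene. A gene was tested when its mean passed the 30th percentile (6.42). The test was lmFit and eBayes (trend) of limma 3.58.1 (R 4.3.3), two-sided, and p was adjusted over 13956 genes by Benjamini-Hochberg, with a threshold of 0.05. Every adjusted p comes from limma. Spread rests on 2 residual degrees of freedom plus a prior shared across genes. The number of arrays limits the precision.

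All 9 members are named, then up to 4 called genes per related list (otherwise the one with the smallest p). The 5 genes most like Dcx among those compared, and Parp1, Parp2 and Pax6, are named too. Members and lists were chosen with earlier results of these data known. Alternatives were other filters, normalizations, priors, weights and probe set rules, and leaving out each array. No protein sequences were used here. Plots were made with Python 3.11.15 and matplotlib 3.10.9.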

Additional observations from a re-analysis of the deposited data

How the results depend on the processing

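Over all genes, 397 were higher and 471 lower, and these counts moved by over 1.5 times in several settings. With all brighter probe sets in the fit they were 1 and 11, or 14 and 30 adjusted over the gene rows alone, and 0 and 0 with no filter on probe sets in limma, a setting chosen after seeing the data (3448 of 34760 at an unadjusted p under 0.05). Without a filter on genes 257 were higher, quantile and cyclic loess normalization gave 779 and 732 lower, and an adjusted p of 0.1 gave 606 and 715. With 1 array left out the counts ran from 97 to 1274 higher and from 161 to 1032 lower. Of the members, 3 fell as reported, 1 in each fit over brighter probe sets, 0 without the filter on probe sets (Dcx -1.05, adjusted p = 0.145), and 1 to 4 with an array left out, 1 without either DMSO array and 4, with Mapt, without olaparib replicate 2. The 1 member called higher under quantile or cyclic loess normalization, eBayes without trend or an adjusted p of 0.1 was Dclk1, and 0 to 1 with an array left out. Map4 turned to -0.0097 under quantile normalization, -0.0089 under cyclic loess and -0.0141 as the mean of its probe sets, and ran from -0.0865 to 0.143 with an array left out, as Map1a did from -0.0573 to 0.191. The cause of these differences was not tested. The remaining members kept their sign in all 17 settings. Settings of the filter, floor, prior and weights and the fits over all probe sets left each member's change as it was. A sign could therefore turn only under another normalization, with the mean of the probe sets or with an array left out. Where an array is left out, the lone array of its group is assumed to vary like the other group (median SD of a gene 0.05 with DMSO, 0.08 with olaparib). No paired analysis was possible because the replicate numbers used here only name arrays in accession order and the labels pair none of them.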

Other observations

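All 9 members were higher on olaparib replicate 2 than on olaparib replicate 1, by 0.02 for Map6 to 0.38 for Map1b and by a median of 0.21. Of all 13956 genes tested 55.4% were higher there, and of the 4185 with a mean log2 value above 8, as 6 members have, 87.3% were, by a median of 0.13. Between the DMSO arrays 4 of 9 members were higher on replicate 2. Quantile normalization brought the brighter genes to 52.4%, and the members were still higher on olaparib replicate 2 in 9 of 9, by a median of 0.08. Under that normalization the olaparib arrays differed by 0.23 for Map1b, 0.18 for Map1a and 0.13 for Map2, and by 0.01 for Dcx. Under cyclic loess normalization Dcx was lower on olaparib replicate 2, by a difference of -0.02, and the other members were higher. These are differences within a group, with no test.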
